A study of Mus musculus with 10 samples.

Results

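The genes described here are 8 markers of long-lived, resident gut macrophages, Timd4, Cd4, Lyve1, Folr2, Cd163, Mrc1, Colec12 and Stab1. They were chosen by name from the 17279 genes listed in the deposited table, and all 8 were found. The table holds RNA sequencing of macrophages from the lamina propria of the mouse small intestine, sorted by flow cytometry for CX3CR1-GFP after the mucosal layer had been peeled off. The mice carried the genotype label C57BL6/J, and they had undergone either sham surgery or pMCAO, a permanent occlusion of the middle cerebral artery that models ischaemic stroke, 24 h before. There were 5 sham and 5 pMCAO libraries. The labels call them biological replicates, give no age, and name replicate 1 of each group as a pool. GFP made from the Cx3cr1 gene also marks monocytes and some other leukocytes, so the sort itself does not select resident macrophages.

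Most macrophages of the gut wall are replaced from blood monocytes throughout life. A further population renews itself in place, lives close to vessels, nerves and crypts, and in the mouse gut is recognised by Timd4 and Cd4 on its surface. Timd4 is a receptor for phosphatidylserine on dying cells, and Cd4 is the co-receptor best known from helper T cells. Lyve1 binds hyaluronan, Folr2 binds folate, and Cd163 takes up complexes of haemoglobin and haptoglobin. Mrc1, the mannose receptor, Colec12, a collectin with a scavenger receptor domain, and Stab1, a receptor that clears modified lipoproteins and matrix fragments, are endocytic receptors. Several of them are also made outside macrophages: Cd4 by T cells, Lyve1 and Stab1 by lymphatic or sinusoidal endothelium, and Colec12 by endothelial and stromal cells.

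In GENCODE M21, on the GRCm38 build, Timd4 spans chr11:46810800-46844332 on the plus strand. Cd4 lies at chr6:124864692-124888221 on the minus strand, and Cd163 lies on the same chromosome at chr6:124304656-124330527 on the plus strand. Lyve1 and Folr2 share another chromosome, at chr7:110850607-110863239 and chr7:101839988-101857194, both on the minus strand. Mrc1 spans chr2:14229392-14332057 on the plus strand and Stab1 spans chr14:31139013-31168641 on the minus strand. Exons of Folr2 overlap those of the antisense gene Gm10602, and exons of Stab1 overlap those of Nt5dc2 on the other strand. Whether the authors' counting used the strand is not given in the sources used here, so reads in those overlaps cannot be assigned with certainty.

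The sequences upstream of Folr2, Cd163, Mrc1 and Stab1 are shown because these genes varied together with Lyve1 across the libraries, as described below. Each is the 250 bases before a RefSeq start on GRCm38.p6, read 5′ to 3′ on the gene's strand, and capitals mark a match on either strand to GGAAGT, the core bound by ETS factors such as PU.1, or to TGCTGA, a MAF half-site. Promoters of 5 of the members were searched, the fifth being Timd4. Colec12 was left out of this search.
Folr2, chr7:101857191-101857440, minus strand: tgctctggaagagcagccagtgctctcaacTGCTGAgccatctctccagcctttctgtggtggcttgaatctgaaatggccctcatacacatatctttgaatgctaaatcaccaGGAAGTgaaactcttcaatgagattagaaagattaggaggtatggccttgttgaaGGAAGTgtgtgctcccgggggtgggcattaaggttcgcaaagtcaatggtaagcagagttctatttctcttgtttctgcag
Cd163, chr6:124304401-124304650, plus strand: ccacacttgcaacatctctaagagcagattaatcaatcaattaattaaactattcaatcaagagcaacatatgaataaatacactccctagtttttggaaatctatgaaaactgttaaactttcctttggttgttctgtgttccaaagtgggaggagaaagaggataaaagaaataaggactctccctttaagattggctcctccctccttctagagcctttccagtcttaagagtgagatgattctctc
Mrc1, chr2:14229164-14229413, plus strand: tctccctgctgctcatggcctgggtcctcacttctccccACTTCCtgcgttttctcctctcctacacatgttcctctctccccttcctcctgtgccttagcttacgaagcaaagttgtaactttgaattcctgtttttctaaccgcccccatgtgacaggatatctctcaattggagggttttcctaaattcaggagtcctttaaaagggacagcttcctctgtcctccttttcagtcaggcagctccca
Stab1, chr14:31168642-31168891, minus strand: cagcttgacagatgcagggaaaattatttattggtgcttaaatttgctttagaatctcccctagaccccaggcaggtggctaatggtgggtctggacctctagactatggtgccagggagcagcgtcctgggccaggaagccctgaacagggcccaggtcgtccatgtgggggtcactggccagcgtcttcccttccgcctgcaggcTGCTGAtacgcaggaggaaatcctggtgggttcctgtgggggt
The Folr2 stretch held GGAAGT starting 136 and 81 bases before the start and TGCTGA at 220 bases, and the stretch before a further RefSeq start of Folr2, not printed, held TGCTGA at 19 bases. The Mrc1 stretch held the ETS core on the opposite strand at 211 bases, and the Stab1 stretch held TGCTGA at 43 bases. In the Timd4 stretch, not printed, GGAAGT lay at 72 bases and the MAF half-site on the opposite strand at 150 and 44 bases. The Cd163 stretch held neither motif. Among 32851 promoters of the same length, 19.7% held GGAAGT and 16.1% held TGCTGA on either strand. The E-box CACGTG, held by 6.02% of promoters, and TATAAA, held by 12.4% on either strand, were in no stretch of these 5 members. A match is a stretch of letters and not a measured binding site.

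Levels are given as CPM, the counts of a gene relative to the total of its library, scaled between libraries with the TMM factors of edgeR. Total counts were 18894151 to 60665972 in the sham libraries and 6430643 to 28672285 in the pMCAO libraries, so low counts are less precise after pMCAO. Macrophage markers were present in every library, with Csf1r, the receptor for the macrophage growth factor, at 542 to 1668 CPM and Cx3cr1 itself at 98.8 to 224 CPM. RNA of other cells was present as well. The summed CPM of 11 B and plasma cell genes ranged from 5984 to 169766 and that of 16 T cell genes from 82.0 to 675. Xist, the RNA that coats an inactive X chromosome, ranged from 1.39 to 4.92 CPM in 8 libraries but reached 1755 CPM in the fifth sham replicate and 4460.25 CPM in the fourth pMCAO replicate, so results are also given without both of these Xist-high libraries.

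Across all genes, edgeR's quasi-likelihood test called 0 of 16949 genes (0%) between pMCAO and sham at a Benjamini-Hochberg adjusted p of at most 0.05, and none of the 8 members was called. At an unadjusted p under 0.05 the test passed 799 genes (4.71%), 383 of them higher after pMCAO (2.26%), and among the members it passed Colec12 alone, 1 of 8. DESeq2 called 3 of 17214 genes (0.0174%), none of them a member. The CPM values of sham and pMCAO libraries overlapped for 8 of 8 members, while they did not overlap for 167 of all genes tested (0.985%). Members had a median log2 fold change of 0.70, against -0.0059 over all genes tested, with 5 above 0 and 3 below. In sorted bulk RNA, a difference in the number of resident cells and a difference in the RNA of these genes per cell cannot be told apart.

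**Figure D1:**
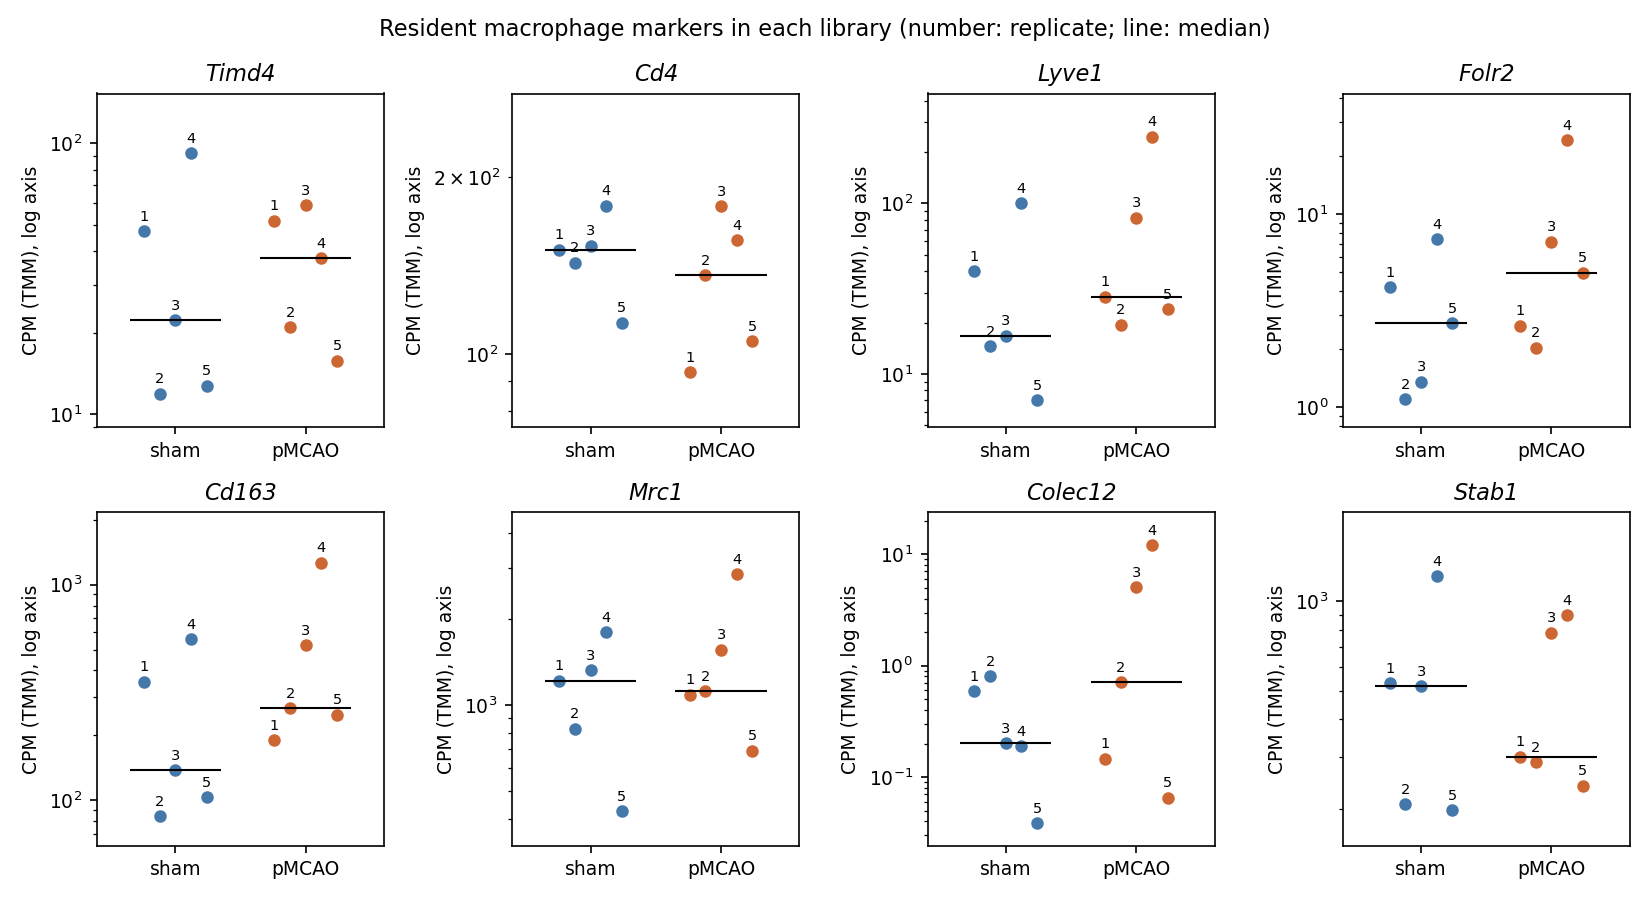
CPM (TMM-scaled, log axis) of each of the 8 genes in the 5 sham and 5 pMCAO libraries. Each point is a library with its replicate number and lines are group medians. The groups overlap in every panel, and pMCAO replicate 4 is the highest of all libraries for Lyve1, Folr2, Cd163, Mrc1 and Colec12.

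Timd4, the marker that defines the long-lived cells in mouse gut, had nearly the same mean in both groups. It was at 47.5, 11.9, 22.2, 91.9 and 12.8 CPM in sham replicates 1 to 5, and at 51.9, 21.0, 59.1, 37.6 and 15.7 CPM in pMCAO replicates 1 to 5. The means were 37.3 ± 33.8 CPM (SD, n = 5) in sham and 37.0 ± 18.8 CPM (SD, n = 5) in pMCAO libraries. The pMCAO values lay inside the sham range. The log2 fold change was -0.0096 with an SE of 0.51 (edgeR, adjusted p = 0.999), and it was 0.64 without sham replicate 4, the highest library. With all libraries its 95% confidence interval ran from -1.12 to 1.10, so the change of Timd4 stayed uncertain within about this range. The interval is itself approximate. Its SE was 0.31 where 5 libraries had to exceed 1 CPM and 0.62 under upper-quartile scaling.

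Cd4, the second surface marker of these cells, was the steadiest of the members. Its sham values were 150.3, 143, 153, 179 and 113 CPM, and its pMCAO values were 93.2, 136, 178, 156 and 105 CPM. Sham replicate 5 and pMCAO replicates 1 and 5 were the lowest, and the highest values of the groups were nearly equal. The mean was 147.6 ± 23.6 CPM (SD, n = 5) in sham and 133.8 ± 35.2 CPM (SD, n = 5) in pMCAO libraries, a log2 fold change of -0.14 with an SE of 0.20 (edgeR, adjusted p = 0.949) and a 95% confidence interval of -0.57 to 0.29. The highest library was 1.92 times the lowest. Its pooled SD within groups was 0.32 on the log2 CPM scale, smaller than the median of 0.38 over 9372 genes with a mean log2 CPM of at least 3.

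Lyve1, the hyaluronan receptor, was measured at 40.0, 14.5, 16.8, 100.04 and 6.97 CPM in the sham libraries and at 28.3, 19.5, 82.3, 246 and 23.9 CPM after pMCAO. In each group the high values came from few libraries: sham replicate 4, and pMCAO replicates 3 and 4. Its log2 fold change was 1.17 with an SE of 0.81 (edgeR, adjusted p = 0.922). Without pMCAO replicate 4 it was 0.11, without both Xist-high libraries it was -0.15, and without sham replicate 4 it was 2.02 (edgeR, adjusted p = 0.708).

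Folr2, the folate receptor of tissue macrophages, was low, with 18 to 294 counts a library. It was at 4.19, 1.10, 1.35, 7.42 and 2.72 CPM in sham libraries and at 2.64, 2.03, 7.17, 24.1 and 4.97 CPM after pMCAO. The order of the libraries resembled that of Lyve1, with pMCAO replicate 4 far above the rest. The log2 fold change of 1.29, with an SE of 0.73 (edgeR, adjusted p = 0.922), was 0.33 without pMCAO replicate 4, 0.26 without both Xist-high libraries and 1.80 without sham replicate 4. The antisense gene Gm10602, which overlaps its exons, had a log2 fold change of 0.71 with an SE of 1.19.

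Cd163, the haemoglobin scavenger receptor, reached 354, 84.5, 138, 558 and 103 CPM in sham and 190.2, 267, 524, 1265 and 249 CPM in pMCAO libraries. Sham replicate 4 was above 4 of the 5 pMCAO libraries. After pMCAO Cd163 had a log2 fold change of 1.01 with an SE of 0.62 (edgeR, adjusted p = 0.922), which was 0.31 without pMCAO replicate 4, 0.11 without both Xist-high libraries and 1.54 without sham replicate 4. Without sham replicate 4, the unadjusted p of Lyve1, Folr2, Cd163 and Colec12 was under 0.05 in edgeR. In that fit 1181 of 17197 genes passed this threshold, and none was called after adjustment.

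Mrc1, the mannose receptor, was the most abundant member. Its values were 1213, 825, 1319, 1793 and 425 CPM in sham and 1085, 1117, 1557, 2861 and 691 CPM in pMCAO libraries. Replicate 5 was the lowest and replicate 4 the highest library in both groups. The log2 fold change was 0.39 with an SE of 0.41 (edgeR, adjusted p = 0.931), and it was -0.01 without pMCAO replicate 4, -0.21 without both Xist-high libraries and 0.62 without sham replicate 4.

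Stab1, the other large scavenger receptor of this set, was at 530.1, 207, 517, 1216 and 198 CPM in sham and at 299.97, 287, 784, 899 and 239.6 CPM in pMCAO libraries. Here sham replicate 4 was the highest of all and pMCAO replicates 3 and 4 followed. For Stab1 the log2 fold change was -0.09 with an SE of 0.53 (edgeR, adjusted p = 0.989), and it was -0.62 without both Xist-high libraries, -0.41 without pMCAO replicate 4 and 0.46 without sham replicate 4. Nt5dc2, whose exons overlap those of Stab1, had a log2 fold change of 0.61 with an SE of 0.33.

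Colec12 was close to the limit of detection. It had 17, 25, 7, 3 and 3 counts in sham replicates 1 to 5 and 1, 19, 50, 146 and 2 counts in pMCAO replicates 1 to 5. In CPM these were 0.59, 0.81, 0.20, 0.19 and 0.039 in sham and 0.15, 0.71, 5.05, 11.97 and 0.065 after pMCAO. Replicates 3 and 4 of the pMCAO group were above every sham library, and the other 3 pMCAO libraries were inside the sham range. The log2 fold change was 3.28 with an SE of 1.29, an unadjusted p of 0.0249 and an adjusted p of 0.922 (edgeR). Without pMCAO replicate 4 it was 1.99 with an unadjusted p of 0.133 by edgeR. With 1 to 3 counts in 4 libraries, its fitted value is imprecise.

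**Figure D2:**
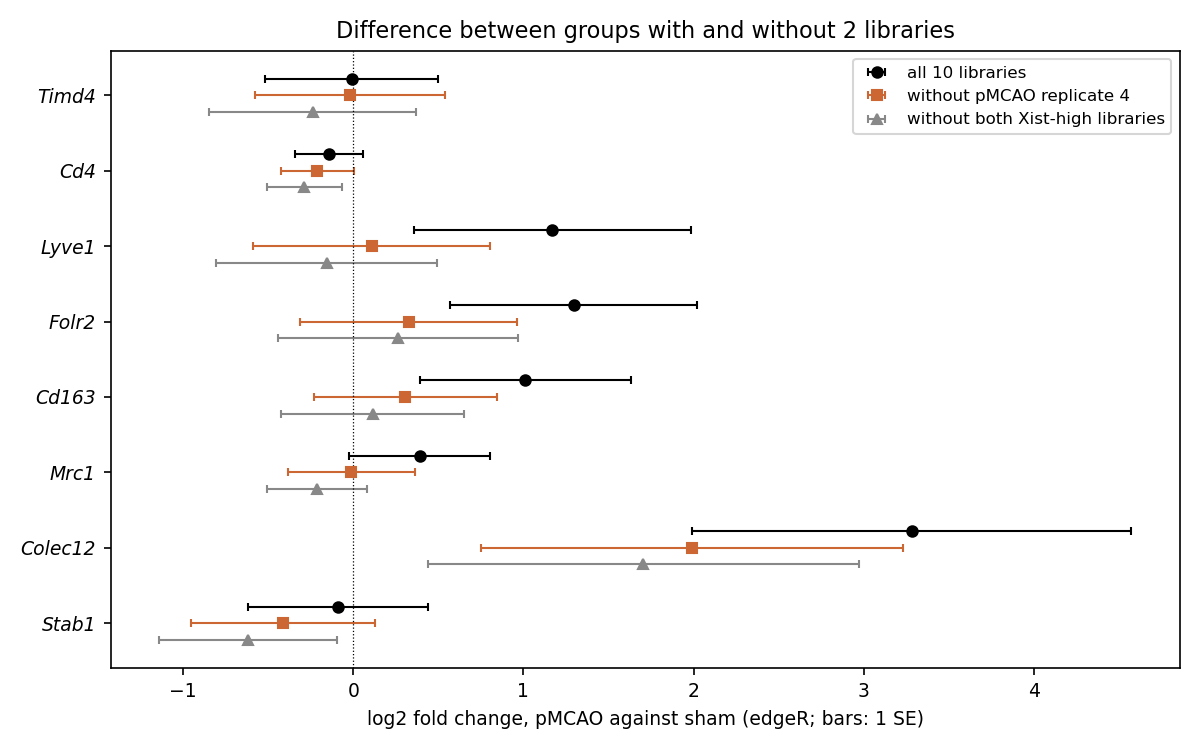
Log2 fold change of pMCAO against sham for each gene (edgeR, points with bars of 1 SE), with all 10 libraries, without pMCAO replicate 4, and without both Xist-high libraries (sham replicate 5 and pMCAO replicate 4). The values of Lyve1, Folr2, Cd163 and Mrc1 move towards 0 without pMCAO replicate 4, while Timd4 and Cd4 lie between -0.29 and -0.0096 in all 3 fits.

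Compared per kilobase of exon, 3 of the members held a fixed rank in the libraries and the other 5 changed places. Mrc1 ranked first in all 10 libraries, with a median of 183 CPM per kb, and Folr2, at 2.23 CPM per kb, and Colec12, at 0.046 CPM per kb, ranked seventh and last in all 10. Between them stood Cd163 (47.2 CPM per kb), Stab1 (39.7), Cd4 (36.4), Timd4 (13.8) and Lyve1 (8.93). Cd163 was above Stab1 in 6 of 10 libraries and Stab1 above Cd4 in 6 of 10, so the levels of these neighbours did not differ beyond their spread. Cd4 was above Timd4 in 9 of 10 libraries, and Timd4 above Lyve1 in 7 of 10, so that the last pair were also within their spread.

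Apart from Cd4, the members varied between libraries far more than most genes with a mean log2 CPM of at least 3. Folr2 and Colec12 lie below that mean, so counting noise has a larger part in their spread than in that of the genes compared. From the lowest to the highest library the level rose 6.15-fold for Stab1, 6.73-fold for Mrc1, 7.73-fold for Timd4, 15.0-fold for Cd163, 21.9-fold for Folr2 and 35.4-fold for Lyve1. The pooled SD within groups, on the log2 CPM scale, was 0.78 for Mrc1, 1.00 for Stab1, 1.07 for Timd4, 1.14 for Cd163, 1.26 for Folr2 and 1.51 for Lyve1. For Mrc1, the steadiest of these 6, 91.4% of the 9372 genes had a smaller SD. The 12 genes of general macrophage identity had SDs between 0.29 (Tyrobp) and 0.74 (C1qa), so all of them were steadier than the 6 markers just named and Cd4 lay within their range.

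The same few libraries were high for most members. Sham replicate 4 and pMCAO replicates 3 and 4 were the highest 3 of 10 libraries for 6 of the 8 genes, namely Cd4, Lyve1, Folr2, Cd163, Mrc1 and Stab1. For Timd4, pMCAO replicate 1 took the place of pMCAO replicate 4, and for Colec12, sham replicate 2 took the place of sham replicate 4. Together the 8 genes came to 36.9% of the summed CPM of the 12 macrophage genes in sham replicate 4, 26.9% in pMCAO replicate 3 and 50.9% in pMCAO replicate 4, against 16.3% to 21.96% in the other 7 libraries. Most of the members' sum was Mrc1, Stab1 and Cd163 in every library. The 3 libraries with high shares had been named because members were high in them. The macrophage sum of these 3 libraries, 10702, 11867 and 10806 CPM, was close to that of sham replicates 1 and 3, at 10658 and 11145 CPM. Sham replicate 5 and pMCAO replicate 5 had the lowest macrophage sums, 4695 and 6361 CPM.

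Correlations over the 10 libraries were positive for 28 of 28 pairs of members, with a median Pearson r of 0.70. After Benjamini-Hochberg adjustment over the 28 pairs, 16 had a permutation p of at most 0.05. Lyve1 and Cd163 were the closest pair, with r = 0.949 (permutation p = 5.0e-05, adjusted 0.0014) and Spearman's rho = 0.939 (permutation p = 0.00017), and r was 0.880 without the 2 libraries farthest from the median of Lyve1. Folr2 and Cd163 followed with r = 0.921 (permutation, adjusted p = 0.0031) and rho = 0.855, and Lyve1 and Mrc1 with r = 0.900 (permutation, adjusted p = 0.0035) and rho = 0.806. Without the 2 farthest libraries these were 0.797 and 0.783. For Cd4, the Pearson correlation with Stab1 alone passed, at r = 0.763 (permutation, adjusted p = 0.0312), and that with Folr2 was weak, at r = 0.316. By rho Cd4 passed with Stab1 and with Mrc1 (rho = 0.855, permutation, adjusted p = 0.0116). With group means removed it passed with Stab1, Lyve1 (r = 0.729), Cd163 (0.719), Mrc1 (0.772) and Colec12 (0.787), and not with Timd4 (0.495) or Folr2 (0.492). Those permutations did not allow for the removed means, so their p-values tend to be too small. Timd4, which with Cd4 marks the same cells, had r = 0.432 with Cd4 (permutation, adjusted p = 0.227) and its closest member was Stab1, at r = 0.829 (permutation, adjusted p = 0.0167). All values share a library, and with it the mixture of cells and the depth.

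Fewer pairs passed relative to general macrophage genes. When the mean log2 CPM of the 12 macrophage genes was subtracted from both genes of a pair in each library, 5 of the 28 pairs passed in place of 16. The shared term can itself move r, so values on this scale do not compare directly with those above. The passing pairs were as follows. These were Lyve1 with Cd163 (r = 0.910), Lyve1 with Folr2 (r = 0.814), Lyve1 with Mrc1 (r = 0.876), Lyve1 with Stab1 (r = 0.776) and Folr2 with Cd163 (r = 0.914). On that scale Timd4 and Cd4 had r = -0.431 (permutation, adjusted p = 0.333), with the same limit. Without both Xist-high libraries 8 of the 28 pairs passed, and with group means removed 19 did, a count that tends to be too high for the reason given above. Leaving out sham replicate 1 or 5 or pMCAO replicate 3 or 5 left 9 pairs, and leaving out pMCAO replicate 2 left 10.

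**Figure D3:**
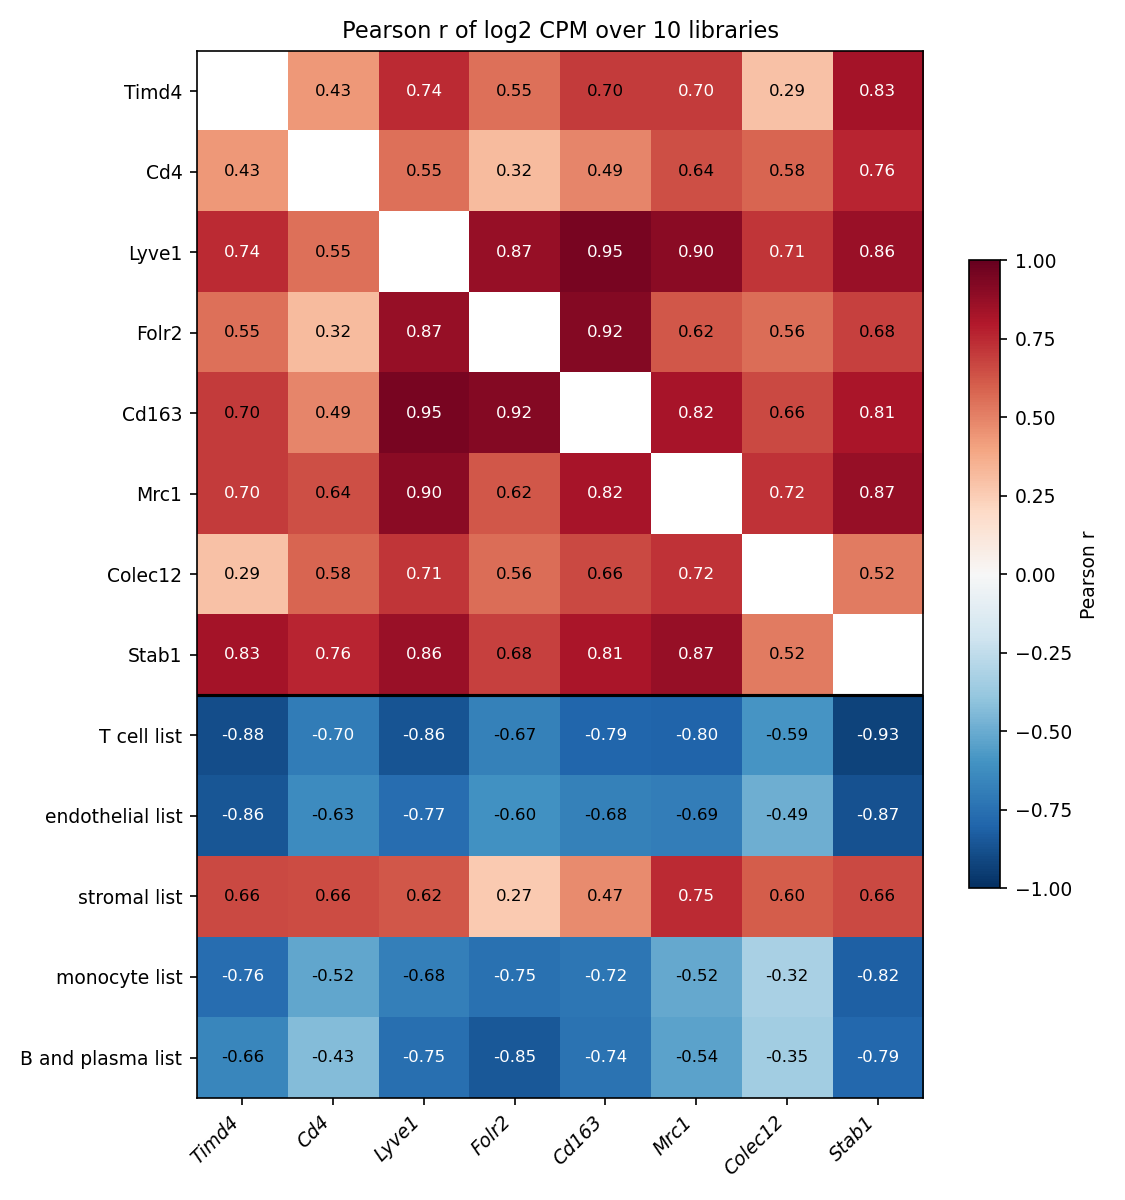
Pearson r of log2 CPM over the 10 libraries, between the 8 genes (upper block) and of each gene with the log2 summed CPM of 5 lists of other cells' genes (lower block). Lyve1, Folr2 and Cd163 form the closest trio, at 0.87 to 0.95, and the T cell, endothelial, monocyte and B and plasma lists run opposite to every member.

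Because Cd4 is also a T cell gene and Lyve1 and Stab1 are also endothelial genes, each member was set against lists of such genes. All 8 members correlated negatively with the summed T cell genes, and 5 of them passed after adjustment over 24 relations. Stab1 had r = -0.925 (permutation, adjusted p = 0.0046), with rho = -0.939 and r = -0.895 without the 2 farthest libraries. Timd4 had r = -0.883, Lyve1 -0.860, Mrc1 -0.799 and Cd163 -0.790. Cd4 itself had r = -0.702 (permutation p = 0.0242, adjusted 0.0525) and did not pass. Cd4 passed by rho (-0.758, permutation, adjusted p = 0.0354) and, with the limit given above, with group means removed (r = -0.794, permutation, adjusted p = 0.0186). Once the same macrophage mean was subtracted from Cd4 and from the T cell sum, r was 0.477 (permutation, adjusted p = 0.319). The shared term can itself move r, so this value does not show that Cd4 followed T cell RNA. The highest T cell sum of 675 CPM, in sham replicate 5, went with Cd4 at 113 CPM and the lowest of 82.0 CPM, in pMCAO replicate 3, with Cd4 at 178 CPM, but the lowest Cd4 level of 93.2 CPM, in pMCAO replicate 1, went with a T cell sum of 311 CPM inside that range. The defining T cell gene Cd3e, a chain of the T cell receptor complex, ranged from 0.82 to 46.9 CPM and the receptor chain Trac from 2.32 to 57.8 CPM.

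The endothelial list gave negative correlations with all 8 members, 3 of them past the threshold: Stab1 (r = -0.869), Timd4 (r = -0.859) and Lyve1 (r = -0.766). Of its 16 genes 8 were in the table, at a sum of 28.5 to 122 CPM, and most of that was Pecam1, which leukocytes also make, and Reln. The endothelial cadherin Cdh5 stood at 0.52 to 4.67 CPM and Prox1, which defines lymphatic endothelium, at 0.15 to 3.04 CPM. In pMCAO replicate 4, where Lyve1 was at 246 CPM, Prox1 was at 2.13 CPM and Cdh5 at 3.12 CPM.

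Stromal genes were low, at a sum of 21.4 to 63.5 CPM, with Pdgfra, a receptor of fibroblasts, at 0.058 to 1.01 CPM and Col1a1, a collagen chain, at 0.56 to 2.52 CPM. Their sum correlated positively with all 8 members and passed for Mrc1 alone (r = 0.749, permutation, adjusted p = 0.0330). With the T cell, endothelial and stromal lists 9 of the 24 relations passed, against 0 of 24 after the macrophage genes were subtracted and 5 of 24 without sham replicate 5. The same macrophage mean was subtracted from the member and from the list, and this shared term can itself move r. The 0 of 24 therefore does not show that these relations are absent.

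Monocyte and B and plasma cell genes were added after their sums had been seen. All 16 relations with the members were negative by Pearson r and 8 of them passed, 4 with each list. By rho only Folr2 with the B and plasma list passed (rho = -0.915, permutation, adjusted p = 0.0091). Stab1 with the monocyte list had rho = -0.770 (permutation, adjusted p = 0.0658), and Colec12 with the B and plasma list had rho = 0.018. Stab1 was the closest to the monocyte list (r = -0.818, permutation, adjusted p = 0.0282) and Folr2 to the B and plasma list (r = -0.849, permutation, adjusted p = 0.0238). The counts by Pearson r changed with the libraries kept, and why they changed was not tested. Without sham replicate 2, 0 of 16 passed, and 1 passed without sham replicate 4, pMCAO replicate 3 or pMCAO replicate 5. There were 2 without sham replicate 3 and 3 without pMCAO replicate 1 or 4. In contrast, 7 passed without sham replicate 1 or pMCAO replicate 2, and 12 without sham replicate 5. Without both Xist-high libraries 11 passed, and 8 after the macrophage genes were subtracted. Sham replicate 4 and pMCAO replicates 3 and 4, high for most members, were the lowest 3 libraries in the monocyte, T cell, endothelial and B and plasma sums, 4 of the 7 lists of other cells. Their B and plasma sums were 5984, 9361 and 6680 CPM, against at least 27819 CPM in the other 7 libraries. The part of these cells' RNA in the members' levels was not tested.

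**Figure D4:**
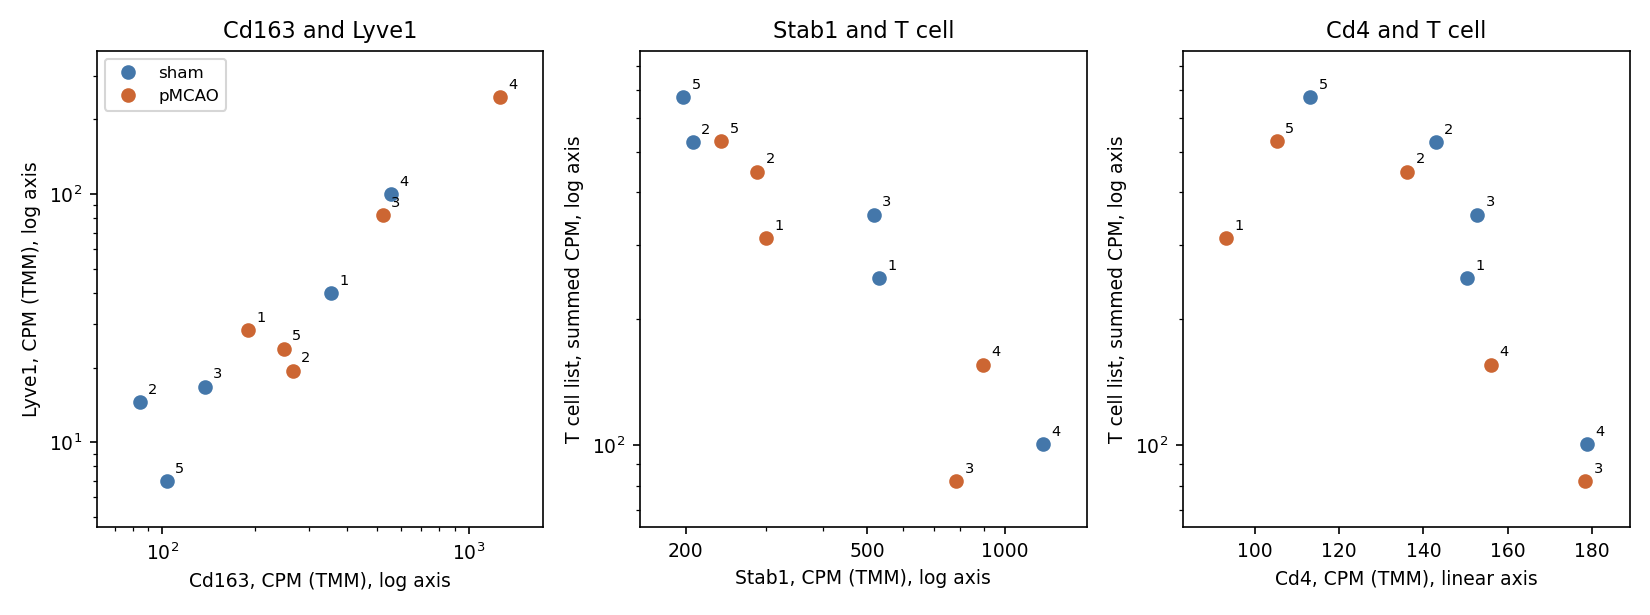
Lyve1 against Cd163 (left), the summed T cell genes against Stab1 (middle) and against Cd4 (right) in the 10 libraries, in CPM. Points carry replicate numbers, and all axes are logarithmic except that of Cd4. Lyve1 and Cd163 rise together over the whole range, and T cell RNA is lowest in the 3 libraries with the highest Stab1 and Cd4.

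Other genes reported in resident, perivascular or Mrc1-high macrophages were read as a wider list. All 20 of them were tested, none passed at an unadjusted p under 0.05, 15 had a log2 fold change above 0 and 5 below, and their median was 0.25. The gene closest to the threshold was Cbr2, a carbonyl reductase, which was at 0.37 to 9.31 CPM in sham libraries and at 0.59 to 74.0 CPM after pMCAO (log2 fold change 2.84, SE 1.31, edgeR, adjusted p = 0.922). F13a1, the A chain of coagulation factor XIII, followed, at 31.5 to 109 CPM in sham and 20.5 to 478 CPM in pMCAO libraries (log2 fold change 1.28, SE 0.66), and then Vsig4, a complement receptor, at 0.091 to 1.22 and 0.11 to 3.28 CPM (log2 fold change 1.67, SE 1.02). All of these were highest in pMCAO replicate 4, as were Lyve1 and Folr2.

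Of 19 relatives of the members in their receptor families, 9 were in the table, with 5 above 0 and 4 below. Havcr2, a relative of Timd4 in the TIM family, passed at an unadjusted p under 0.05, at 59.2 to 71.4 CPM in sham and 65.3 to 101 CPM in pMCAO libraries (log2 fold change 0.34, SE 0.15, edgeR adjusted p = 0.922). Izumo1r, a folate receptor relative of Folr2, had a log2 fold change of -0.88 with an SE of 0.54, and Scarb1, a scavenger receptor for high-density lipoprotein, of 0.22 with an SE of 0.15. Of 13 listed partners, genes that act on the members' ligands or cargo, 11 were in the table, and none was called after adjustment. Sparc, a matrix protein that Stab1 clears, had a log2 fold change of -1.46 with an SE of 0.76, and Il16, a ligand of Cd4, of 0.23 with an SE of 0.19.

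The monocyte list, the source of the replaced macrophages, held 2 of 8 genes that were lower at an unadjusted p under 0.05. Among all 16949 genes tested, 416 were lower at that threshold. Plac8, high in monocytes, was at 145 to 554 CPM in sham and 70.7 to 249 CPM in pMCAO libraries (log2 fold change -1.08, SE 0.41), and Vcan, a proteoglycan, had a log2 fold change of -1.47 with an SE of 0.66. Hp, haptoglobin, which carries haemoglobin to Cd163, had a log2 fold change of -1.16 with an SE of 0.67. None of them was called after adjustment (edgeR, adjusted p = 0.922). Ly6c2 and Ccr2, which define classical monocytes, had log2 fold changes of 0.05 with an SE of 0.77 and 0.14 with an SE of 0.32.

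Other cells' lists held no called gene either. The 16 T cell genes had a median log2 fold change of -0.51, with 4 above 0 and 12 below, and those nearest the threshold were Cd2 (-0.998, SE 0.55), Trbc2 (-0.92, SE 0.59) and Cd3d (-0.87, SE 0.54). Of the 11 stromal genes, Pdgfrb, a pericyte receptor, was lower at an unadjusted p under 0.05 (log2 fold change -1.32, SE 0.58, edgeR adjusted p = 0.922), while Pdgfra had 1.59 with an SE of 0.86 and Col1a1 -0.63 with an SE of 0.59. The endothelial genes Pecam1, Prox1 and Egfl7 had log2 fold changes of -0.27, 0.52 and 0.65 with SEs of 0.35, 0.89 and 1.09. The 11 B and plasma cell genes had a median of -0.053.

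The genes whose levels followed each member most closely were sought among 9372 genes with a mean log2 CPM of at least 3, by Pearson r over the 10 libraries, as a description only. Timd4 was followed by Trim41 (r = 0.973) and Art2a-ps (r = 0.958), and Cd4 by Immp1l (r = 0.929) and Cebpd (r = 0.928). Lyve1 went with Cp (r = 0.960), the copper protein ceruloplasmin. Folr2 went with BE692007 (r = 0.963) and Cdk14 (r = 0.954). Cd163 went with Glul (r = 0.957), glutamine synthetase, and with Lyve1 (r = 0.949), the only member among these. Mrc1 was followed by Lilra5 (r = 0.989) and B3galnt1 (r = 0.983), Colec12 by Tbc1d14 (r = 0.932) and Cul4a (r = 0.925), and Stab1 by Dlc1 (r = 0.971) and Etv1 (r = 0.957). All of these genes share the libraries' mixture of cells and depth.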

How the data were processed

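Lamina propria macrophages from 5 sham and 5 pMCAO mice or pools were profiled as ribosome-depleted total RNA (Trio kit, paired-end). Whole-number counts and CPM values for each gene were deposited by the authors, and the CPM values equal the counts over the library total within 0.0005. In each of the 17279 genes listed the second-highest count is at least 10, so low genes had been removed. The submitters' processing notes name STAR, featureCounts, limma, GRCm38 and mm10, and their versions are not given in the sources used here. The table's fold changes, p-values and means were not used.

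After filterByExpr and TMM scaling, groups were compared by edgeR's quasi-likelihood test (version 4.0.16, R 4.3.3) without covariates, adjusting over 16949 genes. It was also run on simulated counts drawn independently for each gene, which hold no variation shared between genes of a library. Correlations used log2 CPM (prior count 2), with 100000 permutations. Values with group means removed were also permuted over all 10 libraries and not within groups, so those p-values tend to be too small. Exon lengths came from GENCODE M21. The labels call the libraries biological replicates and tie none to single animals, so p-values measure the spread between these libraries.

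The members, lists and alternatives were chosen with earlier results of these data known. Named genes are the members, the 3 genes with the smallest unadjusted p in each list discussed, defining markers of each cell type discussed, the 2 nearest genes by r and Xist. Of these, 2 genes that the rule gives are not reported here. Alternatives were DESeq2 1.42.0, limma-voom (limma 3.58.1) with and without sample quality weights, other scalings and filters, the replicate number as a block, and leaving out libraries.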

Additional observations from a re-analysis of the deposited data

How the results depend on the processing

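None of the 8 genes was called under any of the 21 alternatives, and the call count of 0 changed under DESeq2 alone, which called 3 genes, none a member. Cd4 stayed below 0 and Folr2, Cd163 and Colec12 stayed above 0 in every fit, except that Colec12 was not tested where 5 libraries had to exceed 1 CPM. Without both Xist-high libraries, Lyve1 fell to -0.15 and Mrc1 to -0.21. Timd4 turned to 0.012 under DESeq2 and with its size factors, 0.0099 under upper-quartile scaling, 0.21 under limma-voom and 0.41 with quality weights. Stab1 turned to 0.0092 under limma-voom and 0.048 without both pools. Leaving out 1 library at a time gave ranges of -0.25 to 0.64 for Timd4, -0.41 to 0.46 for Stab1, -0.010 to 0.62 for Mrc1, 0.11 to 2.02 for Lyve1, 0.33 to 1.80 for Folr2, 0.31 to 1.54 for Cd163, 1.99 to 3.81 for Colec12 and -0.27 to -0.038 for Cd4. The low ends of Lyve1, Folr2, Cd163, Mrc1, Colec12 and Stab1 were without pMCAO replicate 4, and the high ends, except for Colec12, without sham replicate 4. Why these values move was not tested. Colec12 was 0.83 with quality weights and 1.77 under limma-voom. Scaling to the 12 macrophage genes put Timd4 at -0.0071, Stab1 at -0.13, Cd4 at -0.27 and Lyve1 at 1.12, and the median of all genes at -0.15. Relative to that median, and so to all genes instead of the macrophage genes, Timd4 was at 0.14 and Stab1 at 0.02. On the same basis Cd4 was at -0.12 and Lyve1 at 1.27.

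Groups share replicate numbers, but same-numbered libraries deviated together with r over 0.1 in only 3 of 5 pairs (range -0.0055 to 0.37), and 2 of 5 correlated best with their own number. With the replicate number as a block, 0 genes were called and 1303 genes passed an unadjusted p under 0.05 by edgeR. In the blocked fit Timd4 was at 0.29, Stab1 at 0.021, Lyve1 at 1.08, Cd163 at 1.07, Mrc1 at 0.38 and Colec12 at 1.85. The SEs of Lyve1, Cd163 and Mrc1 were 0.37, 0.37 and 0.16, smaller than without the block. Unadjusted p by edgeR was 0.019 for Lyve1, 0.018 for Cd163 and 0.045 for Mrc1. It was 0.058 for Folr2, 0.22 for Colec12, 0.30 for Cd4, 0.43 for Timd4 and 0.93 for Stab1.

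Between members, 5 pairs passed after subtracting macrophage genes, 8 without both Xist-high libraries, and 9 to 17 without 1 library. With the T cell, endothelial and stromal lists 18 passed with group means removed, 0 after subtracting macrophage genes and 5 to 12 without 1 library. The count of 18 tends to be too high, since the permutations did not allow for the removed means. With the monocyte and B and plasma lists 0 to 12 passed without 1 library. For these relations, subtracting macrophage genes and leaving out libraries were chosen after seeing the data. The subtraction took the same mean from both sides of a relation, which can itself move r. Colec12 had 1 to 3 counts in 4 libraries, among them the deepest, sham replicate 5, so its values there are imprecise.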
